A study of Mus musculus with 22 samples.

Results

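Marrow grown from stem cells that received a guide RNA against Runx1 was compared directly with marrow grown from stem cells that received a guide RNA against Bcor, with no control library in the test. The comparison took the 3 libraries titled sgRunx1 + sgLuc and the 3 titled sgBcor + sgLuc, 6 of the 22 libraries of the series, and the titles alone chose them. Both groups came from C57BL/6 recipients of LSK cells, a lineage-negative marrow fraction with Sca-1 and Kit on its surface and rich in stem cells, taken from donors with a Cas9 knock-in. Every recipient had been irradiated with 7 Gy. In each group the gene-specific guide was paired with sgLuc, a guide against luciferase, which the mouse genome does not hold. Mice gave whole marrow when leukaemia showed or else 6 months on, with the reason not given mouse by mouse. The labels give no guide sequence, no promoter for Cas9 and no share of edited cells, so unedited donor cells and surviving cells of the host can be present in any library. Nothing in the labels states that the replicates are separate mice, so the p-values measure the spread between these libraries. The groups are called Runx1-guide and Bcor-guide marrow here, and a difference is written as Runx1-guide over Bcor-guide, so that a positive log2 fold change means a higher level in Runx1-guide marrow.

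RUNX1 is a transcription factor that pairs with CBFB to bind DNA, is needed for the first blood stem cells to form, and later governs platelet, lymphoid and basophil differentiation. BCOR is a corepressor and part of a variant of the Polycomb complex PRC1. This complex acts at unmethylated CpG-rich DNA, where it marks histone H2A with ubiquitin. Hox genes are among the genes it holds down in blood progenitors. Both genes are recurrently mutated in human myeloid neoplasms, RUNX1 also as the cause of a familial platelet disorder. Hoxa genes, which encode homeodomain transcription factors, are active in stem cells and silenced as blood cells mature.

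Total counts were 39690068, 45085176 and 40138814 in Runx1-guide replicates 1, 2 and 3, and 39923331, 45680170 and 41812858 in Bcor-guide replicates 1, 2 and 3. No library of either group held a read of the Y-linked genes examined, and Xist stood at 586 to 671 CPM (reads scaled to a common library total and by the trimmed mean of M-values, TMM), so both groups match in sex, whereas the sgLuc libraries carried Y-linked reads. Levels in sgLuc marrow (6 libraries) and in marrow with both guides (sgBcor + sgRunx1, 3 libraries) are therefore given only beside the comparison, with no test. Mitochondrial genes took 1.23% to 1.34% of the counts in Runx1-guide and 1.67% to 1.88% in Bcor-guide marrow. On the first principal component, with 63.6% of the variance, the Runx1-guide libraries lay at −32.3 to −27.7 and the Bcor-guide libraries at 9.95 to 44.3. Bcor-guide replicate 2 stood apart on the second component (18.4% of the variance), at −35.5 against −1.75 and 20.8 for the other replicates of its group. It held few B cell progenitor transcripts, with a summed level of 104 CPM over 16 genes against 1906 and 3874 CPM, and counts of called genes are therefore also given without it.

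Runx1 mRNA did not separate the groups. It stood at 136, 115 and 93.1 CPM in Runx1-guide and at 108, 104 and 138 CPM in Bcor-guide marrow, and the groups overlapped (log2 fold change −0.01, SE 0.160, edgeR FDR 0.977). Bcor mRNA was 59.5, 59.3 and 52.0 CPM in Runx1-guide and 126, 111 and 200.2 CPM in Bcor-guide marrow, so the targeted gene was higher, not lower, in the group with its guide. The log2 fold change was −1.34 (SE 0.216, edgeR FDR 0.00907), and the call ended without Runx1-guide replicate 2 (FDR 0.0535) or 3 (FDR 0.0644). The control marrow with sgLuc alone had a lowest, median and highest Bcor level of 50.8, 60.3 and 68.1 CPM over 6 libraries, near the Runx1-guide level, and a Runx1 level of 87.0, 94.4 and 99.8 CPM. Both genes are on the minus strand of GRCm38 in GENCODE M21. Bcor (ENSMUSG00000040363) spans 12036740 to 12160355 of chromosome X, and the span of Runx1 (ENSMUSG00000022952) is 92601466 to 92826149 of chromosome 16. Small insertions or deletions left by Cas9 need not change an mRNA level, and counts per gene do not show them.

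Of 15449 genes tested, edgeR's quasi-likelihood test called 1939 (FDR under 0.05 after Benjamini-Hochberg adjustment), which is 12.6% of those tested. In Runx1-guide marrow 905 genes were higher (5.86%) and 1034 lower (6.69%), and the median log2 fold change over all tested genes was 0.0015. The larger differences lay mostly on the lower side, with 153 genes higher and 455 lower by a log2 fold change of at least 2. Every called gene had no overlap of CPM between the groups, which was true of 33.5% of all tested genes. Leaving out 1 library changed the count. It was 728, 700 and 1142 without Runx1-guide replicates 1, 2 and 3, and 981, 2793 and 1597 without Bcor-guide replicates 1, 2 and 3. In each of these 6 fits, 569 of the 1939 genes were called in the same direction, 274 higher and 295 lower. With all 22 libraries in 1 fit, 838 genes were called, 188 higher and 650 lower.

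**Figure D1:**
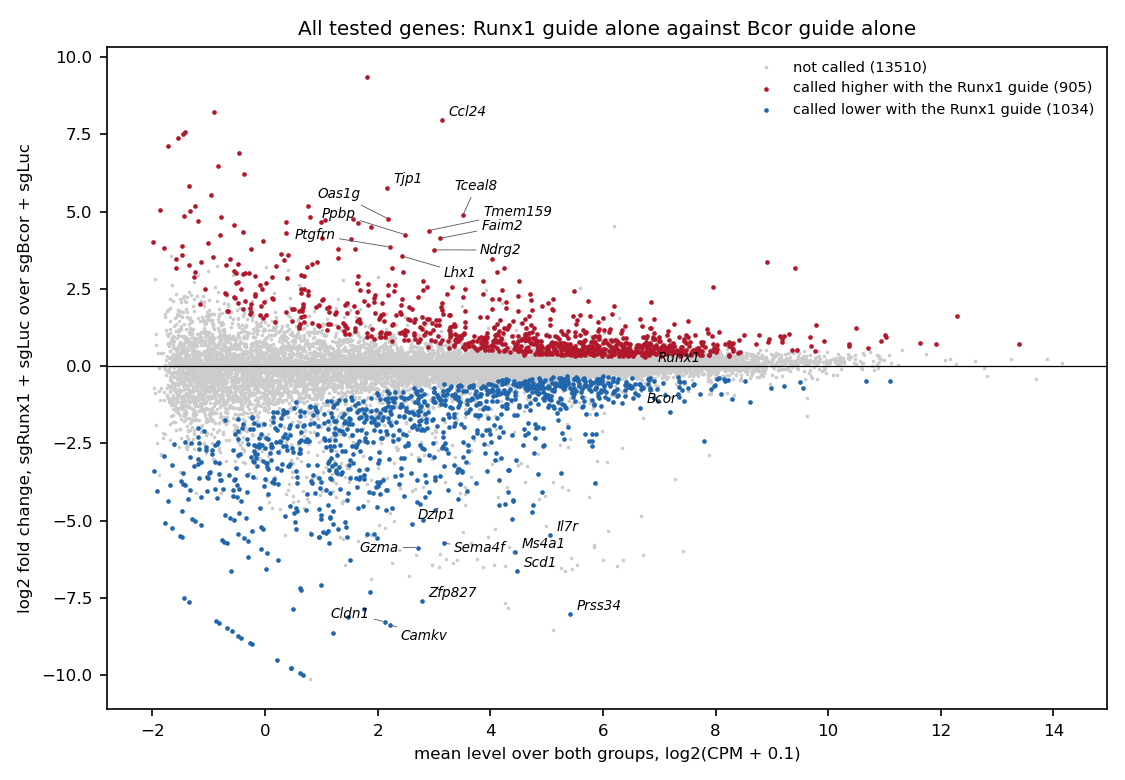
Each point is 1 of the 15449 tested genes, with its mean level over both groups on the horizontal axis (log2 of CPM + 0.1) and its log2 fold change, Runx1-guide over Bcor-guide, on the vertical axis. Red and blue mark the 905 and 1034 called genes, which spread further below 0 than above it, and the 20 genes with the largest called differences at 4 CPM or more are named with Runx1 and Bcor.

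Among genes averaging 4 CPM or more, the largest difference on the higher side was in Ccl24, the eotaxin-2 chemokine that attracts eosinophils. Ccl24 stood at 18, 15 and 19.2 CPM in Runx1-guide and at 0.0243, 0.133 and 0.0438 CPM in Bcor-guide marrow (log2 fold change 7.96, SE 0.414, edgeR FDR 0.000174). Its level was 0.130 to 0.979 CPM in sgLuc marrow and 6.52, 14.7 and 1.17 CPM with both guides together (sgBcor + sgRunx1), so the Runx1-guide libraries and those with both guides lay above the sgLuc range, replicate 3 of the latter only just. Tmem159, a lipid droplet assembly factor, showed another pattern. It stood at 15.6, 15.5 and 11.4 CPM with the Runx1 guide and at 0.778, 0.445 and 0.833 CPM with the Bcor guide (4.39, SE 0.290, edgeR FDR 0.000198), while sgLuc marrow held 7.61 to 12.3 CPM. Here the Bcor-guide libraries were the low ones. Tceal8, a gene of the transcription elongation factor A-like family on chromosome X, likewise stood at 19.7, 22.6 and 23.5 CPM against 1.41, 0.356 and 0.504 CPM (4.88, edgeR FDR 0.00219), with 4.99 to 19.3 CPM in sgLuc marrow.

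Of the other 7 genes in this ranking, Ppbp is described with the platelet genes. Faim2, an inhibitor of Fas-driven cell death, was at 9.21 to 19.6 CPM against 0.657 to 1.18 CPM (log2 fold change 4.13, edgeR FDR 0.000745). Ndrg2, a differentiation-related gene of the alpha/beta hydrolase family, was at 13.4 to 17.0 CPM against 0.535 to 1.80 CPM (3.76, edgeR FDR 0.00174). Lhx1, a homeodomain factor known from kidney and head development, was at 5.35 to 13.2 CPM against 0.467 to 1.31 CPM (3.56, edgeR FDR 0.00373), and Ptgfrn, a membrane protein that binds tetraspanins, at 7.27 to 10.04 CPM against 0.170 to 0.978 CPM (3.85, edgeR FDR 0.00461). Oas1g, of the interferon-induced oligoadenylate synthetases, was at 6.29 to 10.5 CPM against 0.131 to 0.632 CPM (4.77, edgeR FDR 0.00247), and its reads can be shared with the similar neighbour Oas1a. These kept their call without any 1 library. Tjp1, the tight junction protein ZO-1, was at 6.23 to 10.7 CPM against 0 to 0.422 CPM (5.78, edgeR FDR 0.0223) and lost it without Bcor-guide replicate 3 or any Runx1-guide replicate (FDR up to 0.102).

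On the lower side, also among genes averaging 4 CPM or more, the gene with the largest difference that kept its call in every omission was Cldn1, which encodes the tight junction protein claudin-1. Cldn1 stood at 0.0511, 0.0224 and 0 CPM in Runx1-guide and at 9.78, 9.25 and 6.6 CPM in Bcor-guide marrow (log2 fold change −8.26, SE 0.536, edgeR FDR 0.000183). The 3 Runx1-guide libraries held 3 counts together against 1119, a ratio of 347 (95% counting interval 118 to 1680). It was also at 0, 0 and 0.167 CPM with both guides and at 11.8 to 32.1 CPM in sgLuc marrow, so of these 4 groups the 2 with the Runx1 guide were low. Sema4f, a semaphorin, was likewise low with the Runx1 guide, at 0.459, 0.112 and 0.414 CPM against 16.9, 22.3 and 13.5 CPM (−5.73, SE 0.467, edgeR FDR 0.000657). In sgLuc marrow Sema4f was 7.04 to 26.3 CPM, a range that spans the Bcor-guide values. Zfp827, a zinc finger protein, showed another pattern. It stood at 0.128, 0.0224 and 0.0517 CPM with the Runx1 guide and at 12.1, 8.34 and 20.2 CPM with the Bcor guide (−7.61, SE 0.576, edgeR FDR 0.000470), and sgLuc marrow, at 0.410 to 2.09 CPM, lay between them. With both guides it was 6.86, 7.36 and 9.93 CPM, near the Bcor-guide level.

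Gzma and Prss34 belong to the same ranking and are described with their cell types. The remaining 5 were carried unevenly by the Bcor-guide libraries. Camkv, a pseudokinase gene known from neurons, was at 4.06, 1.42 and 21.9 CPM there and had 3 counts in Runx1-guide marrow (ratio 381, 95% counting interval 130 to 1850; edgeR FDR 0.0319). Dzip1, a cilium protein gene, was at 4.18, 2.93 and 27.8 CPM against 0.233 to 0.459 CPM (log2 fold change −5.09, edgeR FDR 0.0470). Scd1, the stearoyl-CoA desaturase, was at 79.2, 8.71 and 44.4 CPM against 0.224 to 0.868 CPM (−6.63, edgeR FDR 0.0321). The B lineage genes Ms4a1, which encodes CD20, and Il7r, the interleukin-7 receptor chain, were lower by −6.01 and −5.46 (edgeR FDR 0.0464 and 0.0469). The calls of all 5 genes ended without any of the 3 Runx1-guide replicates, those of Camkv, Dzip1, Scd1 and Il7r without Bcor-guide replicate 1, and those of Scd1 and Ms4a1 without Bcor-guide replicate 3 (FDR up to 0.184).

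Most megakaryocyte and platelet genes were higher in Runx1-guide marrow. Of 21 tested megakaryocyte and platelet genes 15 were called higher and 1 lower, against 5.86% and 6.69% of all tested genes, and the median log2 fold change was 1.16 beside 0.0015 over all tested genes. The same shares of all tested genes are the background for the counts in the lists that follow. Bulk marrow cannot tell more cells of a type from more RNA per cell, here or in those lists. Ppbp, the platelet basic protein from which a neutrophil-attracting chemokine is cut, stood at 10.2, 12.6 and 8.69 CPM against 0.657, 0.511 and 0.504 CPM (log2 fold change 4.25, SE 0.254, edgeR FDR 0.000177). Alox12, the platelet 12-lipoxygenase and a known RUNX1 target in human platelets, stood at 3.68, 5.06 and 2.79 CPM against 0.195, 0.200 and 0.0438 CPM (4.72, SE 0.537, edgeR FDR 0.00169). The groups were far apart in both genes, and sgLuc marrow (0.162 to 1.80 CPM of Ppbp, 0.154 to 0.475 of Alox12) lay near the Bcor-guide level. This was not so for every platelet gene. In sgLuc marrow Pf4 was 1.59 to 19.8 CPM (median 9.07), a range that spans both groups, and Clec1b, the podoplanin receptor CLEC-2, was 1.97 to 3.68 CPM, around the Runx1-guide mean of 2.68 and above the Bcor-guide mean of 0.360. The summed level of the list was 728.5 to 1317 CPM there, against 1109.6 to 1937 CPM in Runx1-guide and 565 to 765 CPM in Bcor-guide marrow. Thbs1, described below, made up most of this sum in Runx1-guide replicates 1 and 2. The sums were not compared without it, so they do not show the rest of the list apart.

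Surface and granule genes of platelets followed. Selp, which encodes P-selectin of the alpha granule, was at 36.9, 39.5 and 25.1 CPM against 3.72, 4.62 and 3.09 CPM (log2 fold change 3.17, SE 0.222, edgeR FDR 0.000246). Treml1, a receptor stored in alpha granules, was higher by 4.11, the platelet tubulin Tubb1 by 4.32 and the von Willebrand receptor subunit Gp5 by 1.71 (edgeR FDR 0.00301, 0.00518 and 0.00491). A smaller difference was seen in Pf4, platelet factor 4, at 8.63 to 10.6 CPM against 3.57 to 5.2 CPM (1.09, edgeR FDR 0.0135). Its call ended without Runx1-guide replicate 2 or 3 (FDR up to 0.0658). Thbs1, thrombospondin-1, was the most abundant of them at 1114, 1105 and 404 CPM against 141, 58.6 and 54.6 CPM (3.38, edgeR FDR 0.0281), and its call ended without Runx1-guide replicate 1 or 2 or Bcor-guide replicate 2 or 3 (FDR up to 0.0998). Gfi1b, a repressor that megakaryocytes share with red cell precursors, was the lower one at 1.34 to 2.31 CPM against 3.13 to 5.65 CPM (−1.19, edgeR FDR 0.0468), and its call ended in 5 of the 6 omissions, all but that of Bcor-guide replicate 3.

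The number of platelet genes called higher was 8, 7 and 9 without Runx1-guide replicates 1, 2 and 3 and 10 without Bcor-guide replicate 3. Alox12, Clec1b, Gp5, Ppbp, Selp, Treml1 and Tubb1 were called in each of the 6 omissions. With all 22 libraries in the fit the number was 4.

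**Figure D2:**
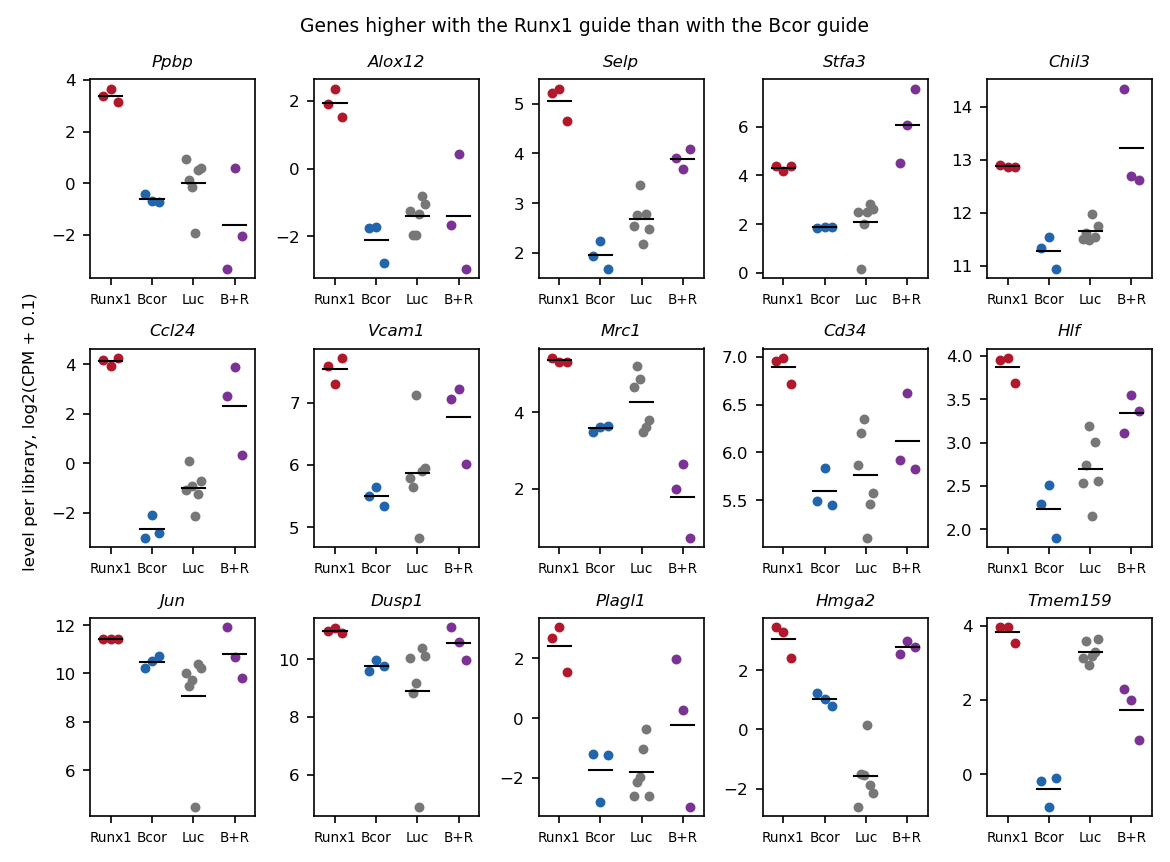
Levels of 15 genes called higher in Runx1-guide than in Bcor-guide marrow, as log2 of CPM + 0.1 (each panel has its own vertical axis), with 1 point per library and a bar at the mean. Runx1-guide and Bcor-guide libraries (n = 3 each) do not overlap in any panel; sgLuc (n = 6) and sgBcor + sgRunx1 (B+R, n = 3) are shown beside them, with no test.

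Stefin A genes, a cluster of neutrophil cysteine protease inhibitors on chromosome 16, were higher in Runx1-guide marrow in 5 of 5 tested members (median log2 fold change 1.91). Stfa3 stood at 20.6, 18.2 and 20.7 CPM against 3.5, 3.6 and 3.53 CPM (log2 fold change 2.50, SE 0.144, edgeR FDR 0.000174), with hardly any spread within a group. Stfa2l1 was the most abundant, at 74.2, 87.5 and 92.0 CPM against 38.1, 42.2 and 31.0 CPM (1.21, edgeR FDR 0.00179). Stfa2 and BC100530 differed by 1.96 and 1.91 (edgeR FDR 0.00309 and 0.00514). Stfa1 differed by 1.06 (edgeR FDR 0.0293), a call that ended without Runx1-guide replicate 2 or 3 or Bcor-guide replicate 1 or 3. The genes are near-identical copies, so the counting can split or drop their reads and they are not 5 separate observations. With both guides they were higher still, as in Stfa3 at 22.7, 68.3 and 191 CPM. In the fit of all 22 libraries none of the 5 was called.

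Promoter sequences of members that moved together are shown because RUNX proteins read a short DNA motif. TGTGGT or TGCGGT was searched on both strands (ACCACA or ACCGCA in reverse) in the 250 bases before each RefSeq gene start on GRCm38.p6. The motif was present in 18.6% of 32851 promoter windows, in 19.4% of 685 genes called higher and in 24.6% of 732 genes called lower that had a window, beside 21.4% of 10513 tested genes. All 4 stefin A genes with a window held it at a like place. The windows, 5′ to 3′ on the gene's strand from 250 to 141 bases before the start, are given with the motif in capitals.
Stfa1, chr16:36276898-36277007 (plus strand): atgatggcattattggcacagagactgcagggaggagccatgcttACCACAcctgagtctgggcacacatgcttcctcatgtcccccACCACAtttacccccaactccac
Stfa2, chr16:36408504-36408613 (minus strand): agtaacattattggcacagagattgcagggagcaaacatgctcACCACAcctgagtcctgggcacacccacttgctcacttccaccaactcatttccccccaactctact
Stfa2l1, chr16:36156561-36156670 (plus strand): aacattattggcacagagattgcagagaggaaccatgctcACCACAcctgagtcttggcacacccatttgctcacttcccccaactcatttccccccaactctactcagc
Stfa3, chr16:36455533-36455642 (minus strand): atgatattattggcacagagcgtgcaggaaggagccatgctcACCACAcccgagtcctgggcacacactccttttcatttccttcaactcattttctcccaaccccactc
The first motif began 205 to 210 bases before the start in these genes, within sequence that the copies share, and Stfa1 held a second. A match of letters is not a binding site, and the 4 matches are not independent.

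Granulocyte genes differed less. Of 22 neutrophil secondary and tertiary granule genes 4 were called higher and 1 lower (median 0.21), and of 10 primary granule genes, which mark promyelocytes, 5 were higher and none lower (median 0.61). Chil3, a chitinase-like protein of neutrophils and macrophages, stood at 7652, 7492 and 7486 CPM against 2575, 2988 and 1967 CPM (log2 fold change 1.61, SE 0.187, edgeR FDR 0.00179). Ctsg, the serine protease cathepsin G of azurophil granules, stood at 720.4, 751 and 883 CPM against 426, 399 and 377 CPM (0.99, edgeR FDR 0.00252). Mpo (myeloperoxidase) and Elane (neutrophil elastase) were higher by 0.73 and 0.82 (edgeR FDR 0.0183 and 0.0268), calls that ended without Runx1-guide replicate 1 or 2 or Bcor-guide replicate 1, and for Elane also without Bcor-guide replicate 3. Ly6g, the surface antigen of mature mouse neutrophils, was the lower one, at 98.0 to 117 CPM against 141 to 293 CPM (−0.99, edgeR FDR 0.0433), and its call ended without any Runx1-guide replicate or Bcor-guide replicate 1. The number of primary granule genes called was 2 and 3 without Runx1-guide replicates 1 and 2 and 2 without Bcor-guide replicate 1. In the same omissions 1, 1 and 2 secondary granule genes were higher, and 2 were without Bcor-guide replicate 3. Chil3, Ctsg and Cst7, an inhibitor of cathepsins, kept their calls throughout the omissions.

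Among 17 tested monocyte genes 5 were higher and 2 lower (median 0.36). Fn1 (fibronectin) stood at 1289, 1640.2 and 725 CPM against 123, 108 and 176 CPM (log2 fold change 3.18, SE 0.341, edgeR FDR 0.00247). F13a1, the coagulation factor XIII A chain of classical monocytes, stood at 1342, 1365 and 1075 CPM against 469, 568 and 497 CPM (1.32, SE 0.141, edgeR FDR 0.00129). In sgLuc marrow Fn1 was 713 to 2327 CPM, a range that holds the Runx1-guide values and lies above the Bcor-guide ones. F13a1 was 534 to 856 CPM there, below the Runx1-guide values. The lower pair, Cx3cr1 and Ace, mark patrolling monocytes. The fractalkine receptor gene Cx3cr1 was at 22.2, 28.2 and 17.8 CPM against 57.1, 65.2 and 52.3 CPM (−1.34, edgeR FDR 0.00269), and Ace at 2.50, 3.32 and 1.34 CPM against 14.4, 16.7 and 14.1 CPM (−2.64, edgeR FDR 0.00179). Fn1, F13a1, Ccl6, Cx3cr1 and Ace were called in each omission, and the number called higher was 3 without Runx1-guide replicate 1 or 2.

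Of 15 tested macrophage genes 4 were higher and 1 lower (median 0.19). Over the 15 the fold change was positive in 8 and negative in 7, so the list did not move as a whole. The 4 higher genes encode surface proteins, and each kept its call in every omission. Vcam1, an adhesion molecule, stood at 193, 157 and 211 CPM against 45.3, 50.2 and 40.2 CPM (log2 fold change 2.07, SE 0.141, edgeR FDR 0.000228). The mannose receptor gene Mrc1 stood at 43.4, 40.1 and 40.1 CPM against 11.1, 12.1 and 12.5 CPM (1.81, SE 0.106, edgeR FDR 0.000174). Siglec1 (sialoadhesin) and Slc40a1 (the iron exporter ferroportin) were higher by 2.33 and 1.54 (edgeR FDR 0.000994 and 0.000657). Cd5l, a secreted macrophage protein, was lower by −2.84 at under 2 CPM, and its call ended without any Runx1-guide replicate or Bcor-guide replicate 1. Marco and Timd4 had no count in Runx1-guide marrow and were too low to test. In the fit of all 22 libraries none of the monocyte or macrophage genes was called higher.

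Chemokine ligands were called higher in 5 of 14 and lower in 2 (median 0.78), beside 5.86% and 6.69% of all tested genes. Beside Ccl24, Cxcl2, which attracts neutrophils, stood at 165, 181 and 185 CPM against 73.6, 56.0 and 56.5 CPM (log2 fold change 1.53, SE 0.128, edgeR FDR 0.000514). Ccl2, which attracts monocytes, stood at 66.5, 72.6 and 66.5 CPM against 24.3, 29.9 and 19.98 CPM (1.49, SE 0.148, edgeR FDR 0.000941). Cxcl12, the stromal factor that retains stem cells in marrow, was one of the lower pair, at 0.291 to 0.511 CPM against 1.31 to 2.32 CPM (−2.20, edgeR FDR 0.0115), a call that ended without Runx1-guide replicate 2 or 3. No chemokine was called lower in those 2 omissions, and 1 without Bcor-guide replicate 1 or 2. The complement gene C4b was 104, 77.1 and 239 CPM against 0.511, 16.4 and 1.47 CPM. It missed the threshold (edgeR FDR 0.140), and without Bcor-guide replicate 2 it passed (FDR 0.0192). C4b shares sequence with C4a.

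Immediate early genes, which cells induce within minutes of a stimulus, and heat shock genes were higher in 8 of 18 tested members and lower in none, with a positive fold change in all 18 (median 0.56). Jun stood at 2738, 2759 and 2739.9 CPM against 1204, 1459 and 1673 CPM (log2 fold change 0.95, SE 0.154, edgeR FDR 0.00713). Dusp1, a phosphatase of MAP kinases, stood at 2001, 2170.3 and 1913 CPM against 766, 990.3 and 864 CPM (1.24, SE 0.141, edgeR FDR 0.00173). Fos differed by 0.76 (edgeR FDR 0.0201), which ended without Runx1-guide replicate 1 or 2 or Bcor-guide replicate 1. The number called was 3, 3 and 4 in those omissions, with Dusp1, Egr1 and Jun called in all 6. In the fits with other groups' libraries it was 0 to 1. These genes also respond to handling of tissue, and in sgLuc marrow Jun ranged from 22.3 to 1332 CPM. The part of handling in the difference was not tested.

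The ERK feedback list went the other way, with 6 of 12 lower and none higher (median −0.82). It holds phosphatases and Sprouty proteins that ERK signalling induces to limit itself. The lower genes also include Ccnd1 and Etv5, which are neither. Dusp4 stood at 1.35, 0.694 and 0.414 CPM against 9.17, 7.8 and 11.9 CPM (log2 fold change −3.53, SE 0.424, edgeR FDR 0.00217). Spry2 and Dusp5 were each lower by −0.96 (edgeR FDR 0.00339 and 0.00634). These 3 kept the call in every omission, and 3 members were called without each of Runx1-guide replicates 1, 2 and 3. Among 14 p53 target genes 3 were higher and 3 lower (median −0.11). Plk2 was at 95.8, 86.8 and 74.3 CPM against 17.0, 16.8 and 26.6 CPM (2.11, edgeR FDR 0.000928) and the death receptor gene Fas was higher by 1.49 (edgeR FDR 0.00135), while the cell cycle inhibitor Cdkn1a was at 51.0, 54.2 and 48.1 CPM against 104, 101 and 78.8 CPM (−0.87, edgeR FDR 0.00391). The lower members were down to 1, Cdkn1a, without Bcor-guide replicate 1 or any Runx1-guide replicate.

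Genes of stem cells and of the fetal program were split. Of 23 stem and progenitor genes 4 were higher and 5 lower (median −0.04). Cd34, the sialomucin of progenitors and endothelium, stood at 124, 127 and 105 CPM against 44.7, 56.9 and 43.6 CPM (log2 fold change 1.31, SE 0.130, edgeR FDR 0.000928). Hlf, a transcription factor of stem cells, stood at 15.4, 15.7 and 12.7 CPM against 4.79, 5.60 and 3.64 CPM (1.66, SE 0.201, edgeR FDR 0.00212). Kit, the stem cell factor receptor, did not pass, with 77.5, 78.7 and 78.6 CPM against 75.0, 87.1 and 105 CPM. On the lower side were the RNA-binding protein gene Msi2 (−1.01, edgeR FDR 0.0101) and Tal1, a regulator of stem cells and red cells (−0.92, edgeR FDR 0.0147). None of the 5 lower calls held without any 1 of the Runx1-guide replicates, 2 and 3 held without Bcor-guide replicates 1 and 3, and the higher calls numbered 2 without Runx1-guide replicate 2 or 3 or Bcor-guide replicate 1. Of 5 fetal program genes tested 3 were higher and 1 lower (median 0.83). Plagl1, an imprinted zinc finger gene, stood at 6.33, 8.29 and 2.82 CPM against 0.340, 0.0445 and 0.329 CPM (4.62, SE 0.707, edgeR FDR 0.00721). Hmga2, a chromatin protein of fetal stem cells, stood at 11.1, 9.70 and 5.22 CPM against 2.26, 1.93 and 1.62 CPM (2.18, SE 0.311, edgeR FDR 0.00420). Both kept their call in the omissions, whereas that of the 1 lower gene, Igf2bp2, ended without Runx1-guide replicate 2 or 3 or Bcor-guide replicate 1 or 3.

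Hoxa genes were lower in Runx1-guide than in Bcor-guide marrow in 6 of 8 tested members and higher in none (median −2.25). Hoxa9, a driver of self-renewal in myeloid leukaemia, stood at 5.21, 5.80 and 5.92 CPM against 25.9, 28.7 and 24.1 CPM (log2 fold change −2.19, SE 0.136, edgeR FDR 0.000183). Hoxa10 stood at 0.128, 0.336 and 0.207 CPM against 3.53, 3.87 and 3.13 CPM (−3.92, SE 0.405, edgeR FDR 0.00109), and Hoxa7 at 4.70, 4.35 and 5.10 CPM against 16.6, 21.8 and 14.1 CPM (−1.87, SE 0.197, edgeR FDR 0.00118). Hoxa5 and Hoxa3 differed by −2.79 and −2.68 (edgeR FDR 0.00196 and 0.00667). Hoxa6 differed by −2.31 (edgeR FDR 0.0167) and alone lost its call, without Runx1-guide replicate 1 or 2. The Bcor-guide libraries were the high ones, since sgLuc marrow held 4.02, 7.38 and 7.58 CPM of Hoxa9 (lowest, median, highest) and 0 to 0.412 CPM of Hoxa10. With both guides Hoxa9 was 22.2, 9.23 and 28.1 CPM, and replicate 2 was low there in Hoxa10 too (1.33, 0.0849 and 1.33 CPM).

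Per gene length, in the authors' deposited FPKM, Hoxa9 (mean 18, range 17.5 to 18.8) and Hoxa7 (14.8, 12.7 to 17.6) led the cluster in Bcor-guide marrow, with ranges that overlap. Hoxa5 (3.82), Hoxa10 (2.14), Hoxa6 (1.81) and Hoxa3 (1.55) followed. In Runx1-guide marrow Hoxa7 (3.79) and Hoxa9 (3.68) led, and no other member reached 1 FPKM. Hoxa11 and Hoxa13 had no read in either group. In the Hoxb cluster 1 of 7 tested genes was called, Hoxb9, with 0 counts in Runx1-guide marrow and 1.80, 0.689 and 0.307 CPM in Bcor-guide marrow. It was at least 36.9-fold lower (against 3 counts over the group; edgeR FDR 0.0167), and the call ended without Runx1-guide replicate 2 or 3. Hoxb8 was high in 1 library only, at 17.4 CPM in Bcor-guide replicate 1 against 0.0222 and 0.789 CPM in the others and 0 counts in Runx1-guide marrow, and the filter on low counts left it out. Hoxb4, the most abundant of the cluster, overlapped (21.7, 23.8 and 25.0 against 27.0, 35.0 and 20.01 CPM; −0.20, edgeR FDR 0.567). Its sign turned without Bcor-guide replicate 2 (0.01). The cofactor Meis1 did not pass (0.33, edgeR FDR 0.392). In the fit of all 22 libraries no Hoxa gene was called, and 4 were with sgEzh2 + sgLuc replicate 3 left out of that fit.

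**Figure D3:**
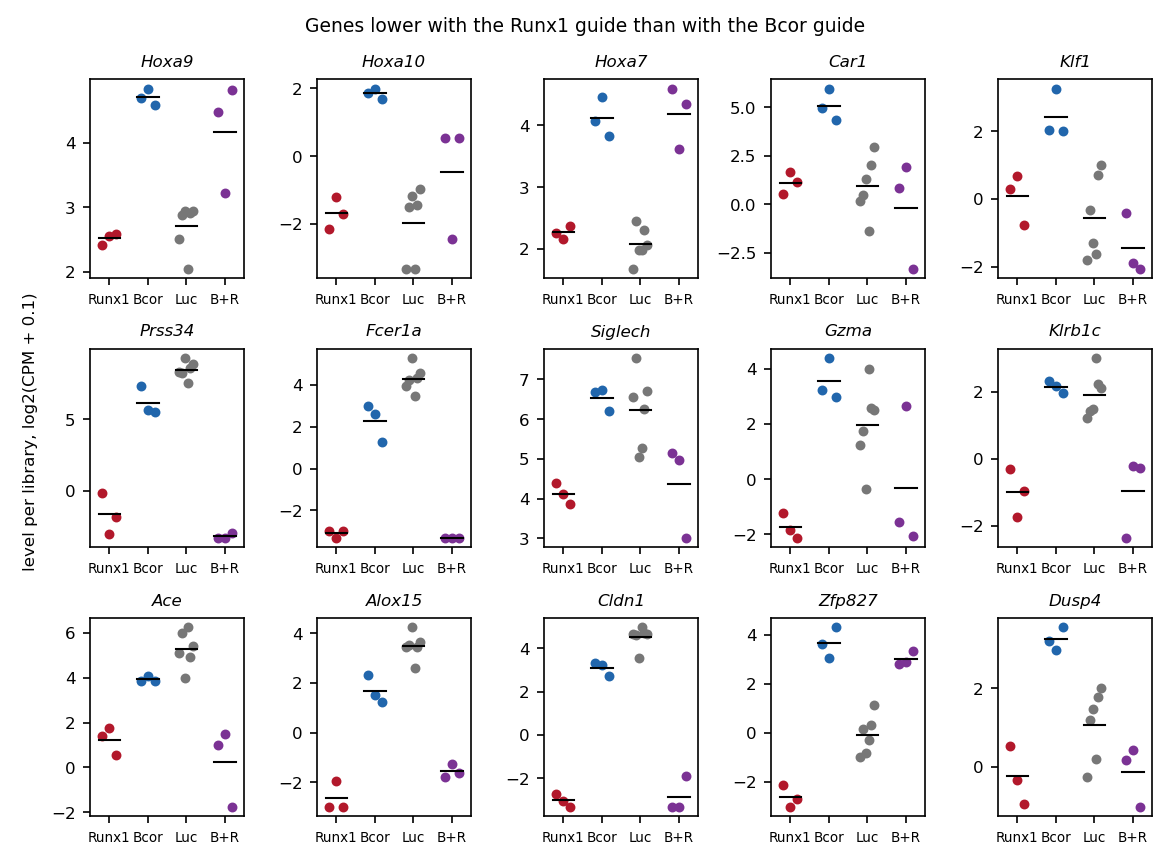
Levels of 15 genes called lower in Runx1-guide than in Bcor-guide marrow, as log2 of CPM + 0.1 (each panel has its own vertical axis), with 1 point per library and a bar at the mean. Hoxa9, Hoxa10, Car1, Klf1, Zfp827 and Dusp4 have their highest group mean in Bcor-guide marrow, whereas Prss34, Fcer1a, Ace, Alox15 and Cldn1 are highest in sgLuc (n = 6) and lowest in the groups with the Runx1 guide (Runx1 and B+R).

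Erythroid genes were lower in 7 of 21 tested members and higher in none (median −1.67). Car1, the carbonic anhydrase of early erythroid cells, stood at 1.35, 3.05 and 2.09 CPM against 30.4, 61.8 and 20.03 CPM (log2 fold change −4.08, SE 0.555, edgeR FDR 0.0102). Klf1, the master activator of globin genes, stood at 1.12, 1.5 and 0.491 CPM against 3.99, 9.45 and 3.90 CPM (−2.45, edgeR FDR 0.0194), and Epor, the erythropoietin receptor, at 0.817, 1.55 and 0.931 CPM against 3.02, 5.78 and 3.16 CPM (−1.84, edgeR FDR 0.0193). Bcor-guide replicate 2 was the highest library in all 3. Globin genes overlapped between the groups, as in Hbb-bs with 15.6 to 40.3 CPM against 31.1 to 46.7 CPM (edgeR FDR 0.385), and globin reads were at most 0.0129% of a library. Only Car1 kept its call in each omission. The number called lower was 1, 2 and 1 without Runx1-guide replicates 1, 2 and 3, and Klf1 lost its call in each of these, Epor without replicates 1 and 3. Without Bcor-guide replicate 3 it was 10, and in the fit of all 22 libraries it was 1. In sgLuc marrow Car1 was 0.292 to 7.52 CPM and Klf1 0.189 to 1.90 CPM, near the Runx1-guide levels.

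Genes of basophils were among the lowest in Runx1-guide marrow. Of 12 tested genes of basophils and mast cells 6 were lower and 3 higher (median −1.86). Prss34, the basophil serine protease mMCP-11, stood at 0.791, 0.0224 and 0.181 CPM against 159, 51.2 and 44.6 CPM (log2 fold change −8.01, SE 1.14, edgeR FDR 0.0183), a call that ended without Runx1-guide replicate 2 or 3 (FDR up to 0.0701). Fcer1a, the IgE-binding chain of the high-affinity IgE receptor, stood at 0.0255, 0 and 0.0259 CPM against 7.78, 6.07 and 2.28 CPM, or 2 counts against 697 (ratio 324, 95% counting interval 89.3 to 2680; edgeR FDR 0.000856). Cyp11a1, a steroid synthesis enzyme found in basophils, had 0 counts against 331 and was at least 103-fold lower (against 3 counts over the group; edgeR FDR 0.00192). Fcer1a and Cyp11a1 were called in every omission. The basophil protease gene Mcpt8 was lower by less, at 5 to 9.78 CPM against 20.3 to 58.7 CPM (−2.22, edgeR FDR 0.0473, ended without any Runx1-guide replicate).

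Bcor-guide marrow was itself below the sgLuc level in these genes, with no test made. sgLuc libraries held 189 to 647 CPM of Prss34 and 11.1 to 39.7 CPM of Fcer1a. With both guides Prss34 was at 0, 0 and 0.0278 CPM. Of the 3 higher members, Hgf, the hepatocyte growth factor, stood at 36.3, 35.5 and 20.3 CPM against 11.2, 11.6 and 11.2 CPM (1.46, SE 0.211, edgeR FDR 0.00463). The others were the carboxypeptidase gene Cpa3 (0.90, edgeR FDR 0.0194) and the histidine decarboxylase gene Hdc (0.78, edgeR FDR 0.0295). The calls of Cpa3 and Hdc ended without any Runx1-guide replicate. The number called lower was 3, 2 and 2 in those omissions, and the number called higher 1 in each. Among 9 eosinophil genes 2 were higher and 2 lower (median −0.87). Ear2, an eosinophil ribonuclease also found in patrolling monocytes, was at 2.17, 2.22 and 1.45 CPM against 20.1, 21.4 and 17.6 CPM (−3.32, SE 0.209, edgeR FDR 0.000183). The lipoxygenase gene Alox15 was lower by −5.43 (edgeR FDR 0.00247), whereas the eosinophil lectin gene Siglecf was higher by 0.81 (edgeR FDR 0.00270). The other higher call, Ear6, ended without any Runx1-guide replicate or Bcor-guide replicate 1 or 2.

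Promoters of Fcer1a and of the cytotoxic cell gene Gzma, which are among the genes lowest in Runx1-guide marrow, are shown with the same motif in capitals (250 bases before the RefSeq start, GRCm38.p6, 5′ to 3′ on the gene's strand, which is minus for both).
Fcer1a, chr1:173227230-173227479: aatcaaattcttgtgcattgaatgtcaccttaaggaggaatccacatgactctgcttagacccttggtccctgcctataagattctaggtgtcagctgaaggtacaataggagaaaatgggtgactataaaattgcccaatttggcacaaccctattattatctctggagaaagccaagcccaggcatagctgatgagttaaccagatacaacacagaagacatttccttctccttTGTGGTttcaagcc
Gzma, chr13:113100982-113101231: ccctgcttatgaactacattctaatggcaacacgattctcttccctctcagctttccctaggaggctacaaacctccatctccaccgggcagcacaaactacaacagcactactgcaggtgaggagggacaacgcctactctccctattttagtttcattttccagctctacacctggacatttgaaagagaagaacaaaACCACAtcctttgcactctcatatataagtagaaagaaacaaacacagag
The motif began 14 bases before the start in Fcer1a and 50 in Gzma. Of the 20 genes of the 2 rankings 15 had a window, and 3 of these held the motif, Prss34, Gzma and Dzip1. That share does not stand out from the 21.4% of tested genes with a window that held it. Both windows shown are ones with a match, and a match of letters is not a binding site.

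Dendritic cell genes were lower in 6 of 12 and higher in 1 (median −1.0). The lower ones mark plasmacytoid dendritic cells, which make type I interferon. Siglech, their surface lectin, stood at 21, 17.3 and 14.4 CPM against 103, 107 and 73.2 CPM (log2 fold change −2.41, SE 0.188, edgeR FDR 0.000443). Tcf4, the transcription factor that sets their identity, stood at 49.4, 49.3 and 33.9 CPM against 109, 81.8 and 108 CPM (−1.16, SE 0.174, edgeR FDR 0.00536). Cox6a2 and the chemokine receptor gene Ccr9 were lower by −3.20 and −3.39 (edgeR FDR 0.000443 and 0.00745). Spib, a factor that plasmacytoid dendritic cells share with B cells, was lower by −3.77 (edgeR FDR 0.0268) and lost its call without any Runx1-guide replicate or Bcor-guide replicate 3. Cd209a, a lectin of monocyte-derived dendritic cells, was the higher one, at 54.8, 66.2 and 39.3 CPM against 17.8, 10.2 and 16.7 CPM (1.86, SE 0.261, edgeR FDR 0.00575). Siglech in sgLuc marrow, 32.9 to 187 CPM, spanned the Bcor-guide level and lay above the Runx1-guide level. With all 22 libraries in the fit 1 of the 12 was called lower.

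NK cell and cytotoxic genes were lower in 6 of 13 and higher in none (median −3.27). Gzma, which encodes granzyme A, stood at 0.332, 0.179 and 0.129 CPM against 9.36, 21 and 7.82 CPM (log2 fold change −5.86, SE 0.543, edgeR FDR 0.000985). Klrb1c, the NK1.1 antigen, stood at 0.715, 0.202 and 0.414 CPM against 4.86, 4.40 and 3.79 CPM (−3.27, SE 0.448, edgeR FDR 0.00347), and Tbx21, the transcription factor T-bet, was lower by −3.91 (edgeR FDR 0.00491). Gzma, Klrb1c, Klrd1 and Tbx21 were called in each omission and in each other setting tried. The summed level of the list was nevertheless close in 1 pair of libraries, 186 CPM in Runx1-guide replicate 3 and 185 CPM in Bcor-guide replicate 3. Of 18 T cell genes 5 were lower, none higher and all 18 had a negative fold change (median −2.86). Cd2, an adhesion receptor of T and NK cells, stood at 1.71, 0.426 and 1.24 CPM against 14, 16.5 and 8.46 CPM (−3.51, SE 0.517, edgeR FDR 0.00713) and kept its call in each omission. The count for T cells was 2 and 1 without Runx1-guide replicates 1 and 3 and 2 without Bcor-guide replicate 1. The coreceptor gene Cd4 (−3.68, edgeR FDR 0.0374) lost its call without any Runx1-guide replicate or Bcor-guide replicate 1.

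B lineage genes had negative fold changes throughout, with a wide spread among the Bcor-guide libraries. Of 12 mature B cell genes 7 were lower, with a median log2 fold change of −4.11. Ms4a1 stood at 1.15, 0.314 and 0.517 CPM against 90.9, 8.34 and 29.0 CPM, and Cd72, a coreceptor of B cells, at 2.07, 1.68 and 1.99 CPM against 102, 18.8 and 33.0 CPM (−4.72, edgeR FDR 0.0250). None of the 12 was called without any 1 of the Runx1-guide replicates, 3 were without Bcor-guide replicate 3 and all 12 were without Bcor-guide replicate 2. limma-voom called none. Of 16 B cell progenitor genes 1, Il7r, was called, although the median was −5.91 and all 16 had a negative fold change. Pax5, which commits cells to the B lineage, was 4.11, 0.605 and 0.362 CPM against 201, 7.05 and 245 CPM and missed the threshold (edgeR FDR 0.105). Rag1, which cuts antigen receptor genes, was 47.8 and 288 CPM in Bcor-guide replicates 1 and 3 (edgeR FDR 0.235). In replicate 2 it was 0.156 CPM, below every Runx1-guide library. Without Bcor-guide replicate 2, 12 of the 16 were called lower, and none was without Bcor-guide replicate 1 or any Runx1-guide replicate. The summed level of the 16 genes in sgLuc marrow was 354.7 to 986.9 CPM, above Bcor-guide replicate 2 and below the other Bcor-guide libraries.

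**Figure D4:**
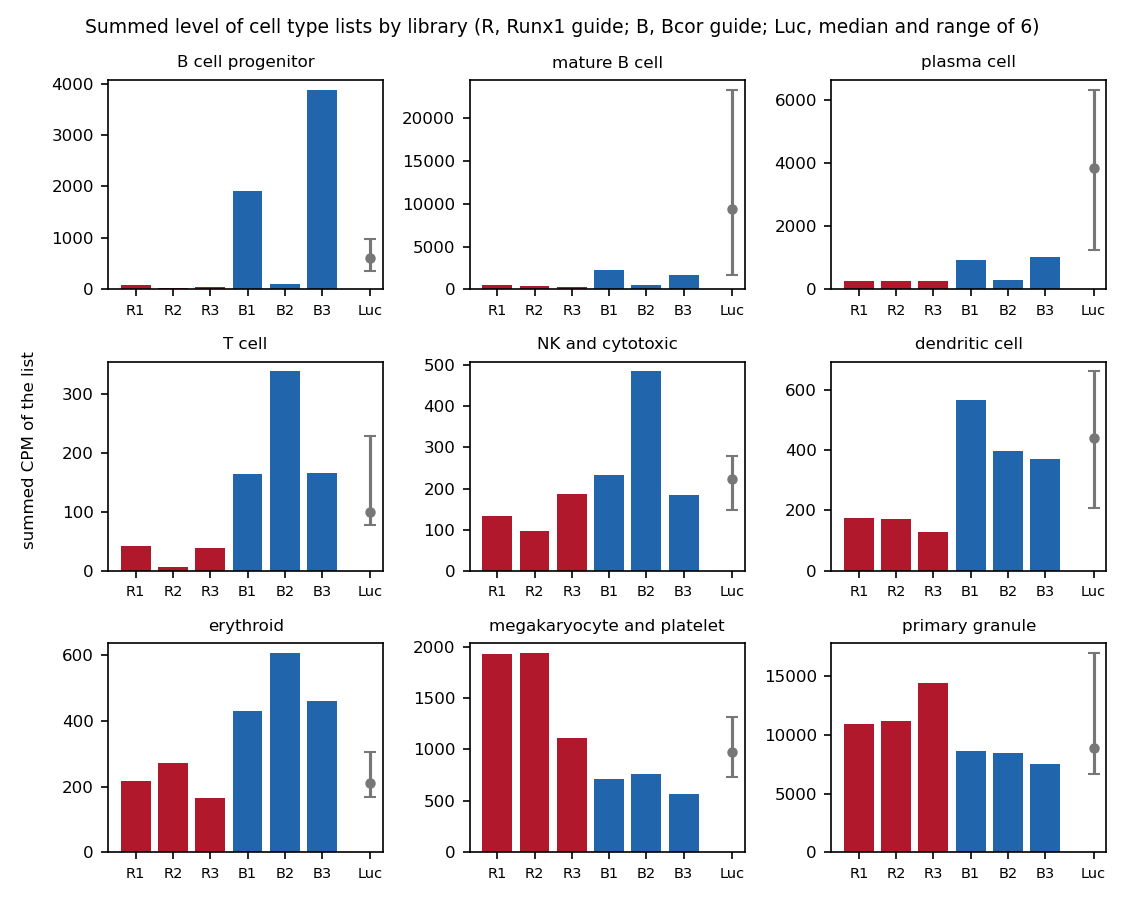
Summed CPM of 9 cell type lists in each Runx1-guide (R1 to R3, red) and Bcor-guide (B1 to B3, blue) library, with the median and range of the 6 sgLuc libraries in grey. B cell progenitor sums are 1906 and 3874 CPM in B1 and B3 but 104 CPM in B2, whereas dendritic, T cell and erythroid sums are higher in all 3 blue bars than in the red ones.

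Among regulators of the Polycomb complexes and the RUNX family the calls were 1 of 11, 0 of 11 and 1 of 6, counts that do not stand out from the 12.6% of all tested genes. Of 11 genes of Bcor and its PRC1 variant, Bcor itself was the 1 called, and none of 11 PRC2 genes was. Among 6 RUNX family and partner genes Cbfa2t3, a corepressor also known as ETO2, was lower, at 33.8, 36.8 and 29.2 CPM against 75.5, 79.5 and 87.8 CPM (log2 fold change −1.26, SE 0.115, edgeR FDR 0.000700). It kept its call in every omission and other setting, and in sgLuc marrow it was 54.7 to 90.7 CPM. Zfpm1, the GATA cofactor FOG1, was lower among 20 lineage transcription factors, at 11.4, 11.3 and 10.5 CPM against 65.6, 31.1 and 37.2 CPM (−1.99, SE 0.274, edgeR FDR 0.00532), and Mitf and Id1 were higher by 1.29 and 1.1 (edgeR FDR 0.00701 and 0.00469). In that list 4 genes were higher and 5 lower (median −0.07). The lower calls numbered 1 without each Runx1-guide replicate and 3 without Bcor-guide replicate 1, and the higher ones 2 without Runx1-guide replicate 2. Of 15 tested genes known to be bound or regulated by RUNX1, 6 were higher and 2 lower (median 0.38), and the higher ones include Alox12, Pf4, Elane and Mpo, described above. Another was Csf1r, the receptor of macrophage colony-stimulating factor, at 333 to 435 CPM against 197 to 296 CPM (0.75, edgeR FDR 0.0263), a call that ended without Runx1-guide replicate 1 or 2 or Bcor-guide replicate 1 or 3. Of this list 2, 1 and 3 were higher without Runx1-guide replicates 1 and 2 and Bcor-guide replicate 1, and none was lower without any Runx1-guide replicate or Bcor-guide replicate 1.

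Receptors, stroma and immune effectors filled in the rest. Of 14 growth factor receptor genes 4 were higher and 2 lower (median 0.12), among them Il3ra, the interleukin-3 receptor chain, at 80.5, 64.0 and 92.7 CPM against 42.7, 48.4 and 39.3 CPM (log2 fold change 0.88, edgeR FDR 0.00900). Its call held in every omission, while the list's higher calls ranged from 1 (without Runx1-guide replicate 1 or 2) to 7 (without Bcor-guide replicate 2). Of 8 tested stroma, bone and endothelium genes 2 were higher and 3 lower (median −0.77). Cdh5 (VE-cadherin) and Pecam1 (CD31), both adhesion proteins of endothelium, were lower by −2.82 and −0.72 (edgeR FDR 0.00818 and 0.00644) in every omission, and Cdh5 stood at no more than 3.6 CPM in any of the 6 libraries. The higher calls of that list were Emcn, another endothelial gene (4.82, edgeR FDR 0.0142), and Lpl (1.78, edgeR FDR 0.0397). Neither of these held without any Runx1-guide replicate. Of 7 complement genes 2 were higher and 1 lower (median 0.35). Cfp, the activator properdin, and C3 were the higher ones, by 1.00 and 0.73 (edgeR FDR 0.00335 and 0.0193). The call of C3 ended in the omissions that left 1 higher member, those of Runx1-guide replicates 1 and 2 and Bcor-guide replicate 1.

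Of 10 MHC class II genes 2 were lower (median −0.91), none of them without Runx1-guide replicate 1 or 2. Of 10 tested plasma cell genes 1, Slamf7, was lower (median −2.08), a call that ended without any Runx1-guide replicate, and 5 were lower without Bcor-guide replicate 2. Of 8 heme synthesis genes 2 were lower (median −0.22) and of 6 Meis and Pbx cofactor genes 1, Meis3, was lower (median 0.27). No heme synthesis or Meis and Pbx call held without Runx1-guide replicate 1 or 2 or Bcor-guide replicate 1. Of 16 NF-kB and inflammation genes 1 was higher and 2 lower (median −0.06), none of them without Runx1-guide replicate 1 or 2 or Bcor-guide replicate 1. Cdkn1a was the 1 call among 6 CDK inhibitor genes (median 0.03). Over all tested genes 12.6% were called, so the few calls in the lists of this paragraph do not stand out.

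Housekeeping and metabolic programs were read against the same 12.6% of all tested genes. None of 46 cytosolic ribosomal protein genes and none of 24 oxidative phosphorylation genes was called (medians 0.11 and 0.07), 1 of 32 cell cycle genes was higher (median 0.09; 0 in each of the 6 omissions), and 1 of 23 MYC and ribosome biogenesis genes was lower (median −0.0009). Of 18 glycolysis genes 2 were higher and 1 lower (median 0.23), and 9 were higher without Bcor-guide replicate 2 but none without Runx1-guide replicate 1 or 2 or Bcor-guide replicate 1 or 3. Of 18 cholesterol synthesis genes 2 were lower (median −0.15; none without any Runx1-guide replicate or Bcor-guide replicate 1), and of 23 interferon response genes 2 were higher and 1 lower (median 0.19), with 13 higher without Bcor-guide replicate 2 and 1 without each Runx1-guide replicate.

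**Figure D5:**
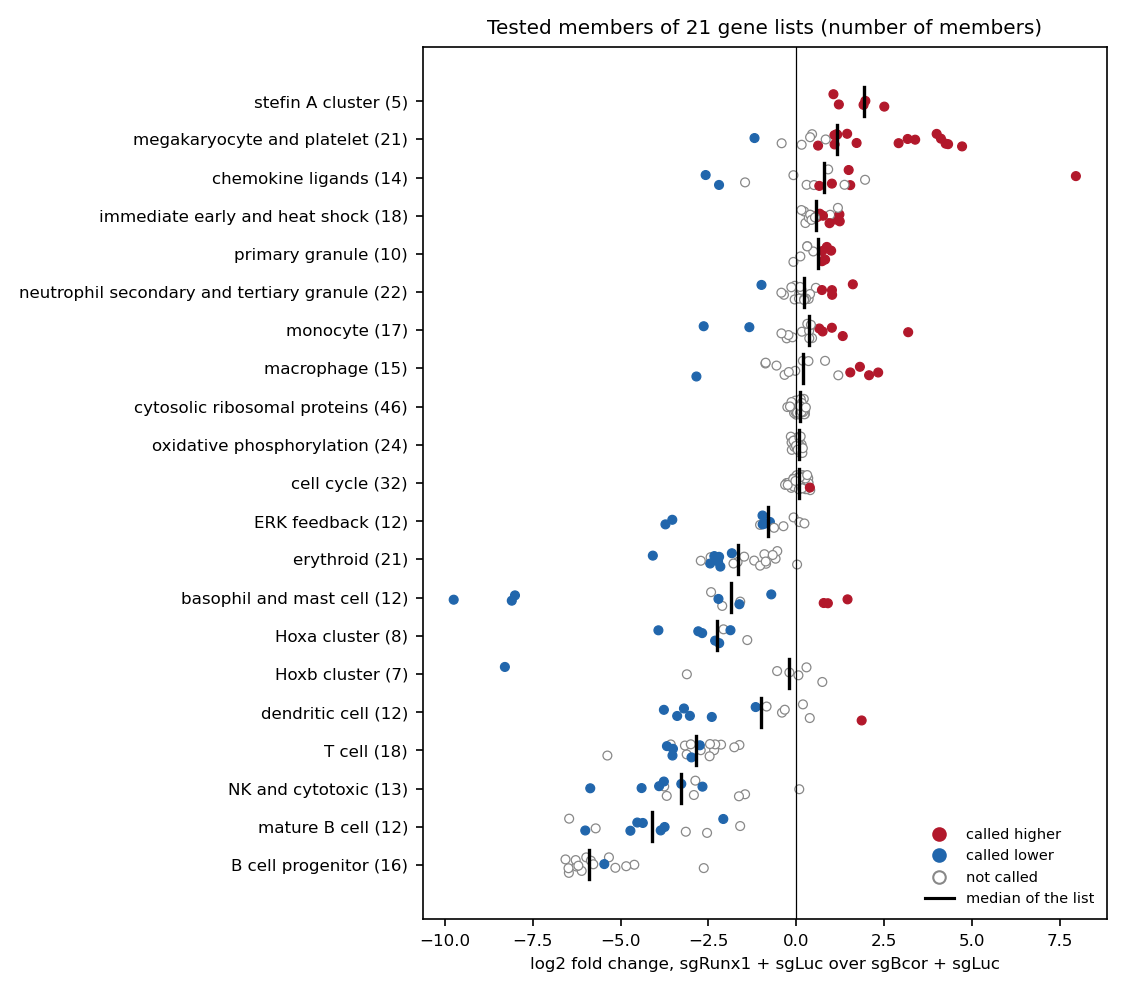
Log2 fold changes of the tested members of 21 gene lists, Runx1-guide over Bcor-guide, with red for called higher, blue for called lower, open circles for not called and a black bar at the median of each list. Stefin A and platelet genes lie mostly to the right of 0, ribosomal protein and oxidative phosphorylation genes at 0, and Hoxa, T, NK and B lineage genes to the left.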

How the data were processed

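The authors deposited, for 47069 Ensembl genes in 22 libraries, raw read counts and FPKM values scaled by gene length and library total. HISAT2, HTSeq, fastp and the build mm9 are named per the submitters' processing notes. Their versions, options and strand use are not stated there, so overlapping and near-identical genes are uncertain. Groups came from the sample titles. The test on the deposited counts of the 6 libraries used edgeR 4.0.16 (R 4.3.3): filterByExpr by group (minimum count 10), TMM scaling, glmQLFit (robust) and glmQLFTest, 4 residual degrees of freedom, and a call at a Benjamini-Hochberg adjusted p under 0.05. The SE is the absolute log2 fold change over the square root of F. CPM use TMM sizes over all 22 libraries. The deposited FPKM equal the count over the library total and 1 length per gene (relative tolerance 1e-06 in the 14383 genes read in each library), and were used only to compare Hoxa genes with each other.

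Beside Runx1 and Bcor, the 10 genes with the largest called difference in each direction were named (mean of at least 4 CPM, no overlap, no predicted genes, clones, pseudogenes or receptor segments), then up to 6 members of each of 44 gene lists in order of p. C4b, Thbs1, Tubb1, Gfi1b, Mcpt8, Hdc, Hbb-bs, Hoxb4, Hoxb8, Kit, Meis1, Pax5 and Rag1 were added after their values were seen. A few members of the lists are counted but not reported here by name. The comparison and the lists were chosen with earlier results of these data known. Intervals and floors (3 counts) cover counting error only. Gene positions come from GENCODE M21 (GRCm38; 98.95% of IDs matched) and promoters from RefSeq (GRCm38.p6). Replicates of a group differed by 14.4 to 153 in chi-square per degree of freedom, which is more than sampling of reads from 1 library gives. This cannot show that they are separate mice. Alternatives were RLE scaling, no filter, DESeq2 1.42.0, limma-voom 3.58.1, a replicate block, wider sets of libraries and leaving out each library. The code was tested on simulated data.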

Additional observations from a re-analysis of the deposited data

Results flagged for a closer look

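Among 42 levels checked in the 6 sgLuc libraries, 3 had 1 library far from the other 5, where chance alone sets about 1 in 20 apart. Gzma stood at 15.8 CPM in sgLuc replicate 4 against 0.678 to 5.87 CPM in the others. Hmga2 stood at 1.00 CPM in the same library against 0.0631 to 0.253 CPM, still under every Runx1-guide and Bcor-guide value. Vcam1 stood at 139.8 CPM in sgLuc replicate 3 against 28.3 to 62.1 CPM, which alone among the sgLuc libraries came near the Runx1-guide level of 157 to 211 CPM. That library also differed in Xist, at 139 CPM against 0.0315 to 2.98 CPM in the other sgLuc libraries. A link between the 2 was not tested. No test between Runx1-guide and Bcor-guide marrow uses these libraries.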

How the results depend on the processing

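RLE scaling, no filter on low counts, limma-voom and a fit of 21 libraries without sgEzh2 + sgLuc replicate 3 called 1933, 1890, 1762 and 1787 genes, near the 1939 reported. DESeq2 called 3026 (1376 higher, 1650 lower), with 1936 of the 1939 among them. All 22 libraries in the fit gave 838 (188 higher, 650 lower), of which 595 were shared, and 15 edited libraries gave 1479, with 580 higher. The share of calls that were higher was 46.7% in the 6 libraries, 22.4% in the fit of 22, 35.2% in that of 21 and 39.2% in that of 15. Leaving out 1 library gave 700 to 2793 calls, 317 to 1220 higher and 380 to 1573 lower, lowest without Runx1-guide replicate 2 (fewest higher without replicate 1) and highest without Bcor-guide replicate 2. The Bcor difference was −1.52 to −1.04 (−1.35 and −1.28 without Runx1-guide replicates 2 and 3, where the call ended) and that of Runx1 −0.14 to 0.13, with the sign turned to 0.00035, 0.12 and 0.13 without Runx1-guide replicate 2 or 3 or Bcor-guide replicate 3. Hoxb4 ranged from −0.38 to 0.0052, its sign turned without Bcor-guide replicate 2. The causes were not tested. The replicate block gave 1487 calls, 1332 of them shared. Same-numbered libraries correlated at 0.11, −0.04 and −0.08 in their deviations. With 3 libraries in each group this cannot exclude a pairing, and the titles name none. Genes under about 1 CPM rest on few reads, and depth limits them most.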
